A study of Rattus norvegicus with 22 samples.

Results

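Intraperitoneal (i.p.) and intravenous (i.v.) injection of adipose-derived stromal cells (ASC) were compared by RNA sequencing of the left kidney of 12 of the 22 rats analysed here. The 6 i.p.-ASC rats and the 6 i.v.-ASC rats were those whose treatment label names the route, and all 17334 genes listed for each rat were taken. All rats were male PKD/Mhm (Cy/+) rats, which carry a missense mutation of Anks6 and develop polycystic kidneys, and all were killed at an age of 8 months. Both groups received 2000000 human ASC per injection, once per month for 6 months, by the route named. The 6 untreated rats of the same strain and age are given only as background. The other 4 rats, of the same strain and age, received ASC-derived conditioned medium (CM) monthly. Neither group is part of the comparison. Both enter the fit through the low-count filter, the scaling and the shared estimate of the spread between rats. No group injected with vehicle by either route was analysed here. The routes were given to different animals, so the comparison is not paired. The injected cells were human and the hosts were rats.

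Cells injected i.v. pass through the lung before they reach other organs, whereas cells injected i.p. are placed in the abdominal cavity, and the study tested the second route because of the risk that cells are trapped in the lung. A whole kidney holds nephron segments, vessels, interstitium and, at the renal pelvis, urothelium, the layered epithelium that lines the urinary tract. Superficial urothelial cells carry uroplakins, the membrane proteins of the urine-facing plaque, and basal urothelial cells carry the keratin Krt5 and the transcription factor Tp63.

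The route separated the rats in no gene past the threshold of the main test. By edgeR (quasi-likelihood F test, p-values adjusted after Benjamini and Hochberg) 0 of 12867 genes (0%) passed an adjusted p-value of 0.05, and the smallest adjusted p-value was 0.0975. DESeq2, the program named by the study, called 24 of 15266 genes (0.157%), all of them higher in i.v.-ASC rats. Of these 24, 8 belong to the urothelium marker list (Upk1a, Upk1b, Upk3a, Krt5, Krt14, Krt15, Psca and Tp63). Single rats decided the edgeR count, which was 13 without i.v.-ASC rat 2 and 13 without i.v.-ASC rat 6, with 12 genes shared (Anxa8, Fat2, Krt5, Krt15, Psca, Sprr1a, Sptssb, Tp63, Upk1a, Upk1b, Upk2 and Upk3a). At an unadjusted edgeR p-value below 0.05 there were 281 genes (2.18%). Where no gene differs, this cut passes a share of 0.05 on average, which is more, so passing it marks no gene as different. Of the 281, 211 (1.64%) were higher in i.v.-ASC rats and 70 (0.544%) were higher in i.p.-ASC rats. The plot of all genes shows this asymmetry, with long fold changes on the i.v. side only.

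**Figure D1:**
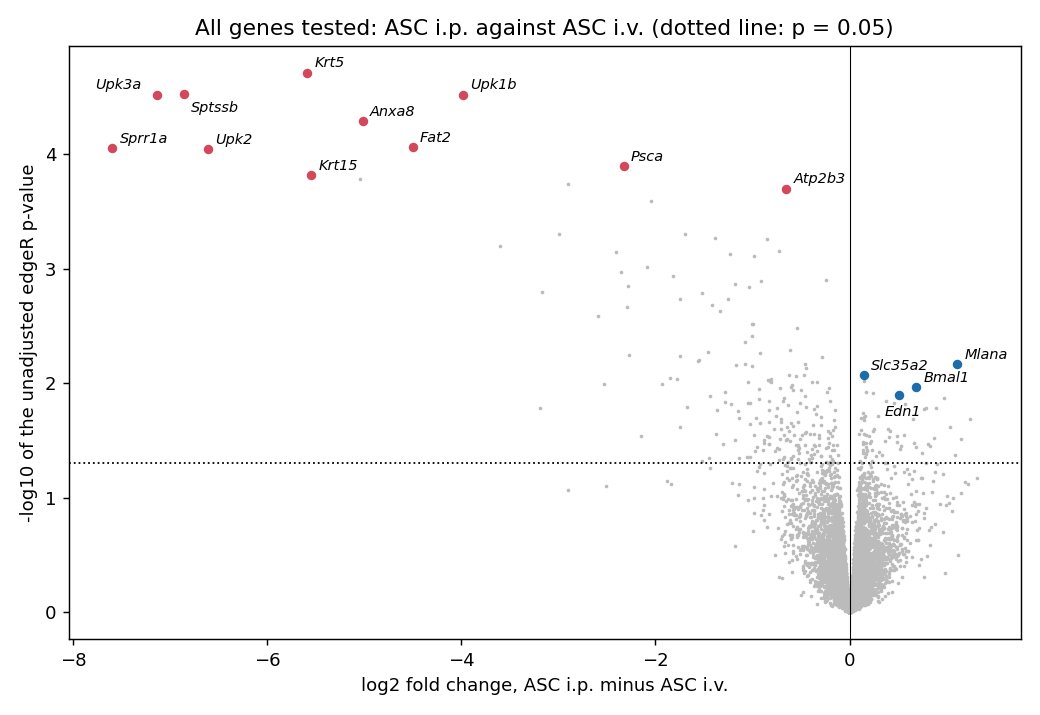
Each grey point is 1 of the 12867 genes tested, with the log2 fold change (i.p. minus i.v.) on the x axis and -log10 of the unadjusted edgeR p-value on the y axis. Named genes are in red where higher in i.v.-ASC rats and in blue where higher in i.p.-ASC rats, and the red points reach p-values of 1.96e-05 while the blue points do not go below 0.00686.

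Libraries that stood apart have to be named before the genes. Of the i.v.-ASC rats, rats 1, 3, 4 and 5 had a mean level of the urothelium list above every i.p.-ASC rat, at 4.73, 5.61, 2.32 and 4.29 on the log2 CPM scale (CPM is a gene's count after scaling for library size). I.v.-ASC rats 2 and 6 had 0.66 and 0.24, inside the range of the i.p.-ASC rats (0.06 to 1.36) and of the untreated rats (0.05 to 1.71). The summed level of the 13 list members tested ran from 171 to 235 CPM in i.p.-ASC rats and from 194 to 1060 CPM in i.v.-ASC rats. Most of the i.p. sum came from Krt19 and Gata3, with means of 143.5 and 59.03 CPM after i.p.-ASC (224.9 and 67.22 CPM after i.v.-ASC). No member was at 0 over a whole group, but Sprr1a and Upk2 were each at 0 in 4 of the 6 i.p.-ASC rats. Results that rest on these rats are given below also from a fit without them, which was added after the data were seen and leaves 2 i.v.-ASC rats.

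The 4 genes with the smallest p-values after i.v.-ASC were Krt5, Sptssb, Upk3a and Upk1b, and the sequences just before their start sites are shown because these genes were high in the same rats. Krt5 is a basal keratin, Sptssb a small subunit of serine palmitoyltransferase, and Upk1b and Upk3a are uroplakins. Each line gives the 250 bases before the RefSeq start site (assembly GRCr8, used for sequence only, since the deposited values were made on build rn6), at chr11:75459131-75459380 on the plus strand for Upk1b, chr7:118014540-118014789 on the plus strand for Upk3a, chr7:134730570-134730819 on the minus strand for Krt5 and chr2:156460910-156461159 on the minus strand for Sptssb, read 5′ to 3′ in the direction of the gene. Capitals mark GATAA or its reverse complement TTATC, the core of the GATA motif.
Upk1b: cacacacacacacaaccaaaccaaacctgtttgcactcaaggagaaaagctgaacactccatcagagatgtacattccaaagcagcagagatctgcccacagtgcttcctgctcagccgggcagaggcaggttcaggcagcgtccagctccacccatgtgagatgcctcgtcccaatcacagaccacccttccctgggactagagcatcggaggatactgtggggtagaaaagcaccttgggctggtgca
Upk3a: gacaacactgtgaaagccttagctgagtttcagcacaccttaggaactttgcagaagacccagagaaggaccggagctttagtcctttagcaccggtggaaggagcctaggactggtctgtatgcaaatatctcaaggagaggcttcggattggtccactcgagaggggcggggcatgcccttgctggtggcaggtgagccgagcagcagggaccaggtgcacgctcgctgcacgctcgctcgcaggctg
Krt5: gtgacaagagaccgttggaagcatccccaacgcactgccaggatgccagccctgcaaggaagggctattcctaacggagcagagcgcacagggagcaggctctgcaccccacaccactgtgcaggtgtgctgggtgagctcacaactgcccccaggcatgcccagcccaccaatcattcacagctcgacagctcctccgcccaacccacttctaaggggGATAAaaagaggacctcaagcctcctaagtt
Sptssb: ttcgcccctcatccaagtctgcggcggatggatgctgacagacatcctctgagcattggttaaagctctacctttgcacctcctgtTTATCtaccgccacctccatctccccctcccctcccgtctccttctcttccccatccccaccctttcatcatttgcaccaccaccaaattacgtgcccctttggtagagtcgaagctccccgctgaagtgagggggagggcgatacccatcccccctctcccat
The GATA core was found once before Krt5, starting 31 bases before the start site, and once before Sptssb, starting 164 bases before it, and it stood in 23.2% of all 27457 promoter windows of this length. AACCGG or CCGGTT, the core of the Grainyhead motif (5.82% of windows), and TATAAA or TTTATA, the TATA box (13.1% of windows), were not found in these 4 windows on either strand. The 2 GATA matches therefore overlapped no other motif searched, and a match is a description of the sequence only.

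The uroplakins were high in i.v.-ASC rats 1, 3, 4 and 5. Upk1a, a tetraspanin uroplakin, was at 0.46 to 5.36 CPM in i.p.-ASC rats (median 0.813), and at 101, 0.663, 152, 7.43, 51.9 and 0.23 CPM in i.v.-ASC rats 1 to 6. Upk1b was at 1.04 to 1.84 CPM in i.p.-ASC rats (median 1.22), and at 40.4, 1.66, 64.1, 3.41, 11.9 and 1.46 CPM in i.v.-ASC rats 1 to 6. The i.v. values therefore spread over a wide range, and the remaining pair of rats, 2 and 6, sat beside the i.p.-ASC rats. The log2 fold change (i.p. minus i.v.) was -3.98 ± 0.75 (SE) for Upk1b, with an adjusted edgeR p-value of 0.0975 and an adjusted DESeq2 p-value of 1.12e-05. For Upk1a it was -5.04 ± 1.10 (SE), with an adjusted edgeR p-value of 0.194 and an adjusted DESeq2 p-value of 0.0012.

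Upk3a and Upk2, the single-span uroplakins, were close to 0 after i.p.-ASC. Upk3a had 12 counts over the 6 i.p.-ASC rats and 1738 over the 6 i.v.-ASC rats, with 0 to 0.335 CPM against 0.153 to 82.1 CPM (median 8.51). Upk2 had 14 counts against 1408, and 13 of the 14 came from i.p.-ASC rat 3. Fitted fold changes of such genes depend on the prior count, so the levels are the better description. Untreated rats had 0 to 1.96 CPM of Upk3a and 0 to 1.13 CPM of Upk2, which overlaps both routes.

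Basal and squamous epithelial genes followed the same rats. Krt5 ranged from 0 to 0.436 CPM after i.p.-ASC (median 0.23) and from 0.307 to 45.8 CPM after i.v.-ASC (median 5.96), with 5 of 6 i.v.-ASC rats above every i.p.-ASC rat and a log2 fold change of -5.59 ± 1.02 (SE). Krt15, another basal keratin, was at 74.4, 0.414, 133, 8.31, 79.7 and 0.153 CPM in i.v.-ASC rats 1 to 6, against 0 to 5.36 CPM (median 0.191) in i.p.-ASC rats. Tp63, the transcription factor of basal epithelial cells, was at 0.397 to 1.36 CPM after i.p.-ASC and at 0.663 to 17.3 CPM after i.v.-ASC. Psca, a surface antigen of urothelial and other epithelia, was highest in i.v.-ASC rat 5 (22.8 CPM) and rat 3 (19.9 CPM), against 0.92 to 3.34 CPM in i.p.-ASC rats. Sprr1a, a protein of the cornified envelope, had 4 counts over the i.p.-ASC rats and 883 over the i.v.-ASC rats. Anxa8, an annexin, and Fat2, a cadherin of stratified epithelium, ranged up to 29.5 and 49.7 CPM after i.v.-ASC, against at most 0.419 and 1.93 CPM after i.p.-ASC. The adjusted edgeR p-values of these genes lay between 0.0975 for Krt5 and 0.196 for Tp63.

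**Figure D2:**
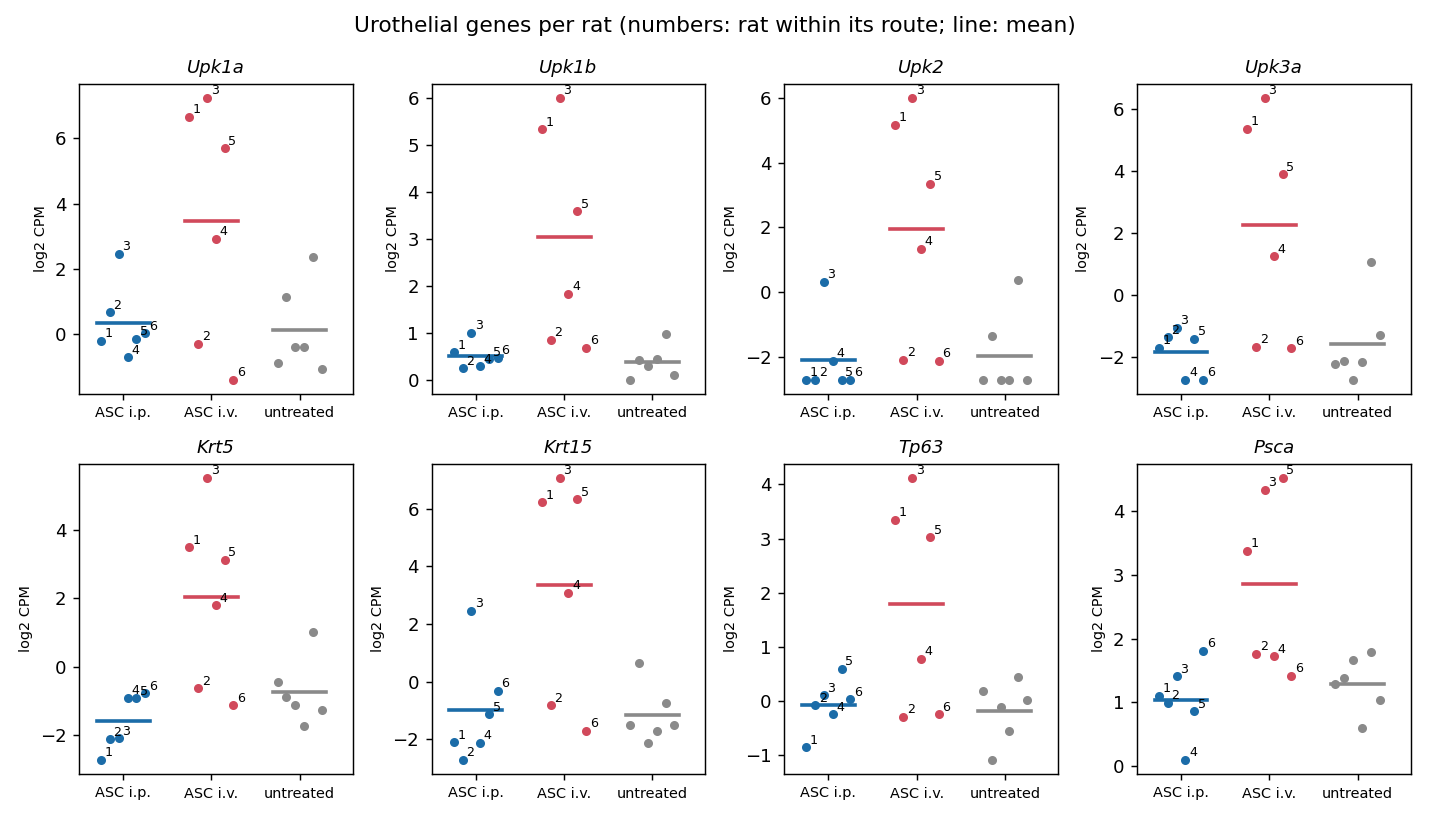
Log2 CPM of 8 urothelial genes, 1 panel per gene, with 1 point per rat by group, the rat's number within its route beside the point and a line at the group mean. I.v.-ASC rats 1, 3 and 5 lie above all i.p.-ASC rats in all 8 panels, and rats 2 and 6 lie at or near the level of the i.p.-ASC and untreated rats.

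Superficial and basal genes did not keep 1 ratio over the i.v.-ASC rats. The summed level of Upk1a, Upk1b, Upk2 and Upk3a was 218, 363, 15.5 and 88.7 CPM in i.v.-ASC rats 1, 3, 4 and 5, and that of Krt5, Krt15 and Tp63 was 95.6, 196, 13.2 and 96.2 CPM. The ratio of the basal to the uroplakin sum was thus 0.439 and 0.54 in rats 1 and 3, and 0.855 and 1.09 in rats 4 and 5. In i.v.-ASC rats 2 and 6 the uroplakin sum was 2.57 and 1.92 CPM, beside 1.61 to 8.63 CPM in i.p.-ASC rats and 1.31 to 9.86 CPM in untreated rats. These ratios are given without a test, since they come from single rats.

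Of the 16 urothelium list genes with an identifier, 13 were tested, and all 13 were higher in i.v.-ASC rats, beside 45.9% of all genes tested. Of the 13, 11 had an unadjusted edgeR p-value below 0.05, beside 1.64% of all genes in that direction. The median log2 fold change of the 13 was -3.98, against 0.009 over all genes tested. Its size depended on the processing and on which members passed the filter. It was -2.296 with the 12 rats alone, -2.024 with limma-trend on TPM and -0.672 with at least 10 counts in every rat. The first and the last of these fits apply their own filter, and the last leaves out members near 0 after i.p.-ASC. These medians are therefore not all over the same members. Members near 0 after i.p.-ASC, such as Sprr1a, Upk3a and Upk2 with 4, 12 and 14 counts, entered the test through the i.v.-ASC rats, so the count and the median describe the list and support nothing further. In a bulk sample, more cells of a type cannot be told apart from more RNA per cell. Gata3 and Krt17, which are also expressed outside the urothelium, were the remaining pair, with log2 fold changes of -0.19 and -0.70. Without i.v.-ASC rats 1, 3, 4 and 5 the median of the list was 0.261, and with the list's mean level as a covariate it was 0.016. Both settings were chosen after the data were seen and use the list itself, so a median near 0 follows from how they are built. Of the 3 untested members, Krt13 had 1 count over the i.p. and 3 over the i.v.-ASC rats, Krt14 had 20 and 259, and Krt20, a keratin of superficial cells, had 9 and 58.

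The highest values of the genes on the i.v. side lay mostly in rats 3 and 5. Of the 211 genes at p below 0.05 and higher in i.v.-ASC rats, 120 (56.9%) had their highest value in i.v.-ASC rat 3 and 43 (20.4%) in rat 5. These genes were chosen for higher values after i.v.-ASC, so the shares are a description. In 91 of the 211, i.v.-ASC rats 1, 3 and 5 all lay above every i.p.-ASC rat, beside 174 of all 12867 genes. Both rats 2 and 6 lay inside the i.p. range in 94 of the 211, beside 6654 of all 12867 genes. Without rats 1, 3, 4 and 5 the fit called 0 genes, with 184 at p below 0.05 and higher after i.v.-ASC and 235 higher after i.p.-ASC.

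The other genes called by DESeq2 included membrane and enzyme genes of epithelium. Uchl1, a ubiquitin hydrolase, was at 13.4 to 20.4 CPM after i.p.-ASC and at 60.4, 26.7, 101, 19.4, 35 and 17.3 CPM in i.v.-ASC rats 1 to 6. Slc14a1, a urea transporter, was at 1.67 to 2.71 CPM against 11.7, 1.99, 19.4, 2.11, 18.3 and 3.22 CPM. I.v.-ASC rat 3 was the highest of the 12 rats in both genes. Serpinb5, Padi1, Crabp2, Clca2, Vsig2 and Lypd2 were likewise highest in that rat, and their mean levels after i.v.-ASC were 5.12, 5.33, 5.14, 4.26, 3.92 and 13.5 CPM, against 0.95, 0.659, 1.58, 1.02, 0.313 and 2.76 CPM after i.p.-ASC. Bcas1, Krt14 and Shh, the ligand of hedgehog signalling, were called by DESeq2 and left out by edgeR's filter on low counts. Shh had 18 counts over the i.p.-ASC rats and 222 over the i.v.-ASC rats, of which rat 3 gave 120 and rat 1 gave 57.

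Several genes of other lists had high values in the same i.v.-ASC rats without passing the adjusted threshold of either program. Wnt7b and Wnt4, ligands of Wnt signalling, were at 14 and 12 CPM in i.v.-ASC rat 3 and 7.94 and 6.19 CPM in rat 5, against at most 2.09 and 1.61 CPM after i.p.-ASC. Pparg, a nuclear receptor of lipid metabolism that urothelium also expresses, was at 9.05, 15.8 and 6.91 CPM in i.v.-ASC rats 1, 3 and 5 and at 1.76 to 3.69 CPM after i.p.-ASC. Sdc1, a cell surface proteoglycan, was at 91.6, 173 and 113 CPM in those rats, against 33.2 to 57.1 CPM after i.p.-ASC. The adjusted edgeR p-values were 0.632 for Wnt7b, 0.679 for Wnt4, 0.736 for Pparg and 0.586 for Sdc1. The part of the urothelial genes in these values was not tested.

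Atp2b3, a calcium pump of the plasma membrane, had another pattern. It was at 2.93 to 4.30 CPM in i.p.-ASC rats (median 3.63) and at 4.62 to 7.46 CPM in i.v.-ASC rats (median 5.30), so that the routes did not overlap. Untreated rats had 4.30 to 6.32 CPM, which overlaps the i.v. range and touches the highest i.p.-ASC rat. The log2 fold change was -0.65 ± 0.145 (SE), with an adjusted edgeR p-value of 0.198 and an adjusted DESeq2 p-value of 0.0314, and without i.v.-ASC rats 1, 3, 4 and 5 it was -0.69. Over all genes tested the rats of the routes did not overlap in 6 genes higher after i.v.-ASC (0.0466%) and in 1 gene higher after i.p.-ASC (0.00777%). The other genes were Actl7b, Ang, C4bpa, Pou2f1 and Hells on the i.v. side and Mapk8, a stress-activated kinase, on the i.p. side, all named after their values were seen. Mapk8 was at 39.4 to 43.3 CPM after i.p.-ASC and at 36.1 to 38.5 CPM after i.v.-ASC, a log2 fold change of 0.14 (95% interval 0.03 to 0.25, adjusted edgeR p-value 1).

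No gene higher in i.p.-ASC rats came near the adjusted threshold, and the 10 with the smallest p-values all had an adjusted edgeR p-value of 1. Among them were Mlana, Slc35a2, Rnf6, Bmal1, Leo1, Ogfod2, Edn1, Slc25a45 and Klhl31. Mlana, a melanosome protein, was at 1.09 to 4.07 CPM after i.p.-ASC (median 2.15) and at 0.613 to 1.41 CPM after i.v.-ASC (median 0.971), with a log2 fold change of 1.11 ± 0.37 (SE). Edn1, the gene of endothelin-1, was at 9.74 to 17 CPM against 6.14 to 11.6 CPM, with a log2 fold change of 0.51 ± 0.18 (SE). In both genes the routes overlapped, and the untreated rats, at 1.5 to 2.75 CPM for Mlana and 12.5 to 18.5 CPM for Edn1, lay with the i.p.-ASC rats. Slc35a2, a nucleotide sugar transporter of the Golgi, Rnf6, a ubiquitin ligase, and Leo1, a subunit of the PAF1 elongation complex, differed by 0.15, 0.14 and 0.17 on the log2 scale. Klhl31 had medians of 3.36 and 2.25 CPM, Slc25a45, a mitochondrial carrier, 26.2 and 22 CPM, and Ogfod2 23.4 and 20 CPM after i.p. and i.v.-ASC.

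The clock genes gave opposite pairs within rats. Bmal1, which drives the clock with Clock, was at 24.8, 13.1, 6.79, 13.7, 18.7 and 21.2 CPM in i.p.-ASC rats 1 to 6 and at 5.33, 11.3, 8.27, 10.7, 11.5 and 14.1 CPM in i.v.-ASC rats 1 to 6. Dbp, an output gene of the clock, was at 141, 229, 265, 243, 143 and 155 CPM and at 348, 264, 284, 198, 219 and 229 CPM in the same order. The rat with the lowest Dbp (i.p.-ASC rat 1) had the highest Bmal1, and the rat with the highest Dbp (i.v.-ASC rat 1) had the lowest Bmal1. The log2 fold changes were 0.68 ± 0.24 (SE) for Bmal1 and -0.39 ± 0.18 (SE) for Dbp, both with an adjusted edgeR p-value of 1. These were the 2 members of the 15 of the clock list at an unadjusted p below 0.05, and the list's median was -0.05.

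**Figure D3:**
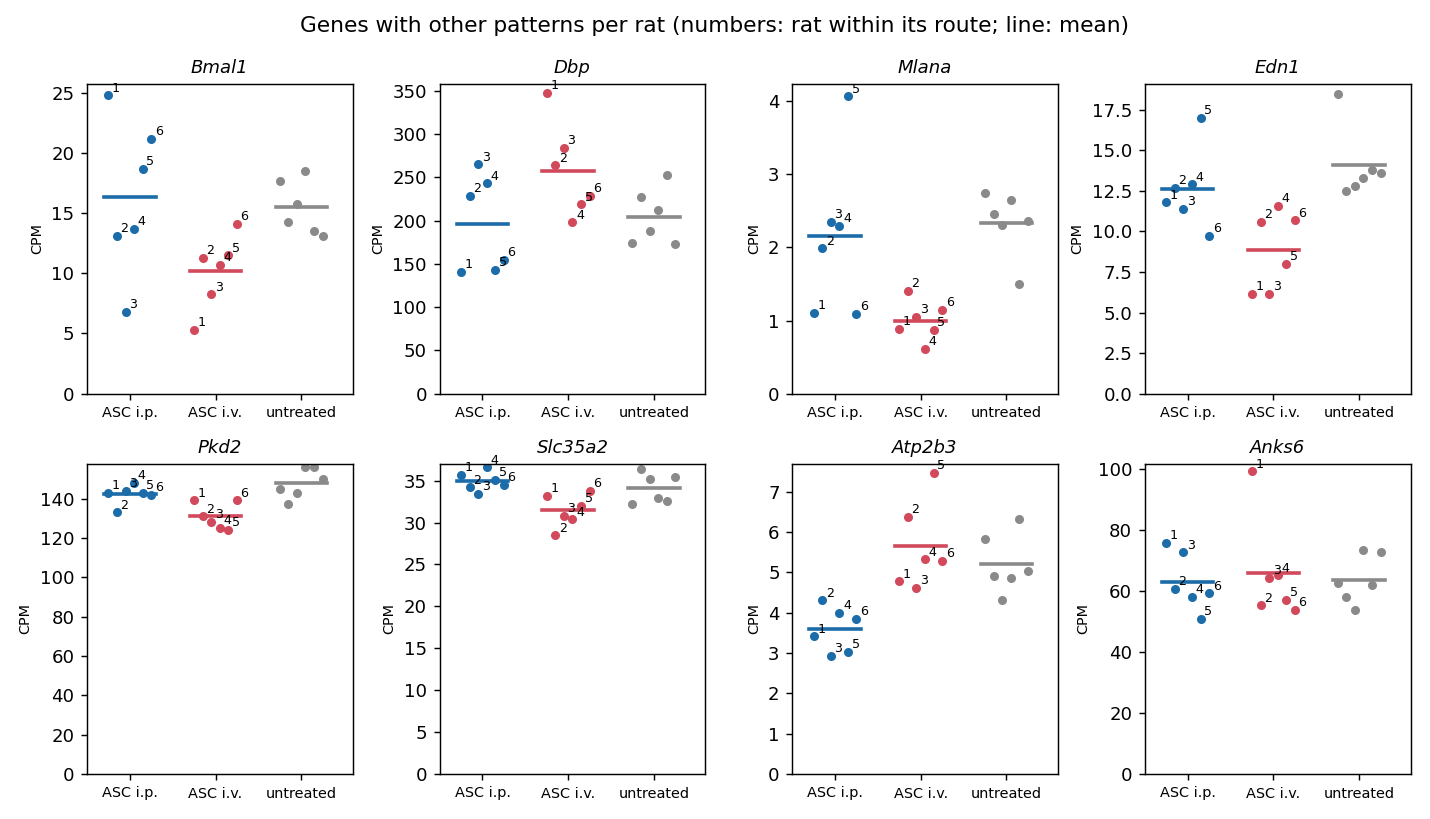
CPM on a linear axis from 0 for 8 genes, 1 panel per gene, with 1 point per rat by group, the rat's number within its route and a line at the group mean. Atp2b3 shows no overlap between the routes, Bmal1 and Dbp run in opposite directions over the rats, and Anks6 is highest in i.v.-ASC rat 1, at 99.1 CPM.

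The podocyte list was lowest in i.v.-ASC rats 1, 3 and 5, which are 3 of the 4 with high urothelial genes. All 12 members, the genes of the filtering cells of the glomerulus, were higher in i.p.-ASC rats, beside 54.1% of all genes tested. The median log2 fold change was 0.25, but 0 of 12 had an unadjusted edgeR p-value below 0.05. The mean level of the list was 4.32, 4.39 and 4.65 log2 CPM in i.v.-ASC rats 1, 3 and 5, below every i.p.-ASC rat (4.97 to 5.85) and every untreated rat (5.31 to 6.06). In i.v.-ASC rats 2, 4 and 6 it was 5.48, 5.04 and 5.80. Wt1, a podocyte transcription factor, was at 2.34, 12.7, 4.13, 7.43, 3.1 and 19.6 CPM in i.v.-ASC rats 1 to 6 and at 7.64 to 21.1 CPM after i.p.-ASC. Without i.v.-ASC rats 1, 3, 4 and 5 the median of the list was -0.26. The rats left, 2 and 6, had the highest podocyte means after i.v.-ASC, so this turn in direction follows from which rats are left.

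Collecting duct principal cells, which take up water through aquaporin-2, gave their highest values in i.v.-ASC rats 3 and 5. Aqp2 was at 1580 and 1440 CPM there, at 698 to 783 CPM in the other 4 i.v.-ASC rats and at 429 to 856 CPM after i.p.-ASC. Fxyd4, a regulator of the sodium pump, was at 190 and 116 CPM in those rats and at 34 to 55 CPM after i.p.-ASC, and Elf5, a transcription factor, at 14.3 and 9.77 CPM against 1.27 to 2.26 CPM. Of the 12 members of the list, 8 were higher after i.v.-ASC, and 4 were higher after i.p.-ASC, the largest by 0.16 on the log2 scale. An unadjusted edgeR p-value below 0.05 with a higher level after i.v.-ASC was found for 5, beside 1.64% of all genes tested. The median log2 fold change was -0.22. Without i.v.-ASC rats 1, 3, 4 and 5 the median was -0.06, and Aqp2 had a log2 fold change of -0.09 in place of -0.57. That fit leaves out rats 3 and 5, which had the highest values, so smaller differences follow from the omission.

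The smooth muscle list had 10 of 10 members higher after i.v.-ASC, beside 45.9% of all genes tested, with a median of -0.15. Its highest means were in i.v.-ASC rats 1 and 4 (5.68 and 5.59 log2 CPM). Actg2, an actin of visceral smooth muscle, was at 34.1 and 10.6 CPM in those rats and at 0.876 to 2.84 CPM after i.p.-ASC. I.v.-ASC rats 3 and 5 had 3.73 and 0.794 CPM of Actg2, so it did not follow the urothelial genes in every rat. Endothelial genes were higher after i.p.-ASC in 14 of 14 members, beside 54.1% of all genes tested. Their median was 0.07, with 0 of 14 at p below 0.05.

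**Figure D4:**
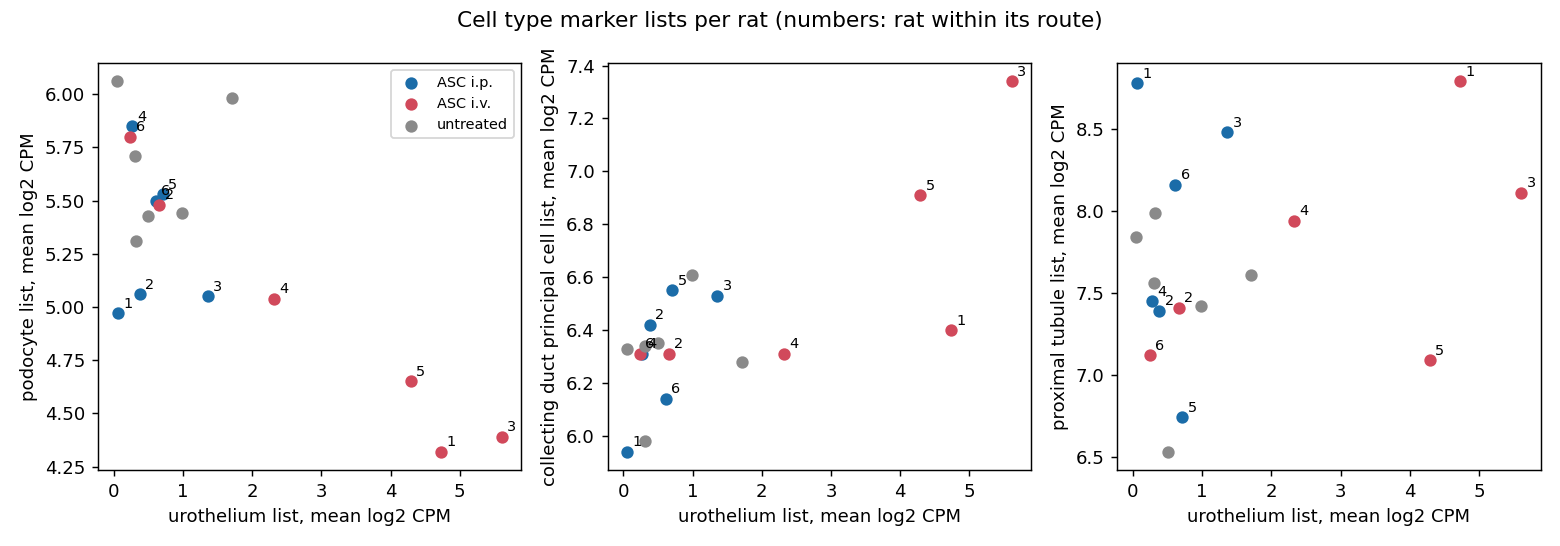
Mean log2 CPM of the podocyte, principal cell and proximal tubule lists (y axes) against that of the urothelium list (x axes), with 1 point per rat and the rat's number within its route. I.v.-ASC rats 1, 3 and 5 lie at the right, with podocyte means of 4.32 to 4.65, while their proximal tubule means, 7.09 to 8.79, lie within those of the i.p.-ASC rats (6.74 to 8.78) or next to them.

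Proximal tubule genes varied widely within both routes. The list's mean was 7.83 ± 0.77 log2 CPM (SD, n = 6) after i.p.-ASC and 7.74 ± 0.66 (SD, n = 6) after i.v.-ASC, with 0 of 20 members at p below 0.05. Lrp2, the gene of the uptake receptor megalin, was at 513 to 2100 CPM and at 658 to 2310 CPM, with a log2 fold change of 0.04 (95% interval -0.69 to 0.76). Slc34a1, the phosphate transporter, was at 569 to 2690 CPM and 698 to 2720 CPM. The routes overlapped over nearly their whole range in both genes. The first principal component of the 12 rats (47.7% of the variance) placed i.p.-ASC rats from -39.9 to 37.9 and i.v.-ASC rats from -55.2 to 36.6, and i.v. rats 1 and 3 and i.p. rats 1 and 3, with proximal tubule means of 8.11 to 8.79, were at its negative end. I.p.-ASC rat 6, with a mean of 8.16, was at 5.8. The second component (12.1%) had i.v.-ASC rats 3 and 5 at one end, at 31.5 and 29.5, and i.p.-ASC rat 1 at the other, at -26.7.

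Umod, the uromodulin of the thick ascending limb, Slc12a1, its salt transporter, and Slc12a3, the transporter of the distal convoluted tubule, had log2 fold changes of 0.03, -0.17 and 0.27, each with an adjusted edgeR p-value of 1. In the list of the distal convoluted and connecting tubule 7 of 8 members were higher after i.p.-ASC, beside 54.1% of all genes tested. The median of this list was 0.25, and without i.v.-ASC rats 1, 3, 4 and 5 it was -0.16. The rats left, 2 and 6, had the highest means of this list after i.v.-ASC (8.49 and 8.48 log2 CPM). The turn therefore follows from which rats are left. Of 14 intercalated cell genes none had p below 0.05, and the 95% interval of all 14 lay within a 2-fold change, beside 90.8% of all genes tested. Slc4a1, their anion exchanger, was highest in i.v.-ASC rat 5, at 712 CPM, against 246 to 348 CPM after i.p.-ASC. Every one of these segment markers had counts in all 12 rats.

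Anks6, the gene mutated in the strain, had a log2 fold change of -0.07 (95% interval -0.36 to 0.23). In the list of cystic disease genes and partners of Anks6 the 95% interval of all 17 members lay within a 2-fold change, beside 90.8% of all genes tested. Pkd2, the gene of polycystin-2, was at 133 to 148 CPM after i.p.-ASC and 124 to 139 CPM after i.v.-ASC, with a log2 fold change of 0.12 ± 0.05 (SE), an unadjusted edgeR p-value of 0.0201 and an adjusted one of 1. Cep290, a protein of the ciliary transition zone, had a log2 fold change of -0.22 ± 0.10 (SE), and was highest in i.v.-ASC rats 1 and 3.

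The lists of energy metabolism gave small medians between the routes. All 61 subunits of oxidative phosphorylation tested had a 95% interval within a 2-fold change, with a median of -0.02 and members from -0.12 to 0.13. Of all genes tested, 90.8% had such an interval. In the other lists it was found for 26 of 27 citrate cycle genes, 26 of 29 genes of glycolysis and gluconeogenesis and 24 of 30 of PPAR signalling and fatty acid oxidation. Members of the last list ran from -1.42 to 0.68. Of the 27 citrate cycle genes 25 were higher after i.p.-ASC, by a median of 0.06, beside 54.1% of all genes tested that were higher after i.p.-ASC. Glycolysis and gluconeogenesis had a median of 0.02 over 29 genes. In PPAR signalling and fatty acid oxidation (30 genes, median 0.04) Pdk4, a kinase that holds back pyruvate oxidation, was at 2.63 to 9.35 CPM after i.p.-ASC and 2.24 to 5.98 CPM after i.v.-ASC, with an unadjusted edgeR p-value of 0.0361. The sterol synthesis list had a median of -0.08 over 21 genes.

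Inflammatory and matrix genes gave small medians between the routes. The medians were 0.03 for NF-kB and TNF signalling (22 genes), 0.06 for JAK-STAT and interferon response (30 genes), 0.02 for MHC and antigen presentation (17 genes) and 0.01 for complement and coagulation (31 genes). For the macrophage list (16 genes) the median was -0.002 and the difference of the list means 0.08, which differ in sign, and its mean ran from 5.07 to 6.26 log2 CPM after i.p.-ASC and from 4.31 to 6.25 after i.v.-ASC. For T, NK and B cell genes (17 genes) the median was -0.07. TGF-beta signalling (27 genes) had a median of 0.02, Wnt signalling (27 genes) 0.01 (difference of the list means -0.11), cyclic AMP and calcium signalling (30 genes) 0.003 (difference of the list means -0.01), and collagens, laminins and matrix receptors (31 genes) -0.01. The 3 members of the matrix list and the 3 of the Wnt list with an unadjusted p below 0.05, among them Sdc1, Lamb3, Wnt7b and Wnt4, were all higher after i.v.-ASC. Fibroblast genes (13 tested) had a median of -0.09 and apoptosis genes (29 tested) 0.05, each with 0 genes at p below 0.05. Cell division genes (27) had a median of -0.01, and the 95% interval of all 27 lay within a 2-fold change, beside 90.8% of all genes tested.

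Ribosomal protein genes were higher after i.v.-ASC in 47 of 49 members, beside 45.9% of all genes tested. Their median was -0.13, with 0 of 49 at p below 0.05. The list's mean ran from 8.10 to 8.72 log2 CPM after i.p.-ASC and from 8.06 to 8.72 after i.v.-ASC. Ribosomal protein genes have near-identical pseudogene copies, and how reads were split between copies is not given, so single members are uncertain. Rpl38 was at 0 in 4 of 6 i.p.-ASC rats and in 1 of 6 i.v.-ASC rats. The blood list (7 genes tested) was higher after i.p.-ASC in 6, by a median of 0.88. Hbb-b1, a globin, was at 18.6 CPM in i.p.-ASC rat 1 and at 3.17 to 7.67 CPM in the other i.p.-ASC rats, against 1.51 to 5.75 CPM after i.v.-ASC. In the list of the renin-angiotensin system 12 of 14 genes were higher after i.p.-ASC. Both counts stand beside 54.1% of all genes tested that were higher after i.p.-ASC. Mas1, the receptor of angiotensin 1-7, was at 0.476 to 1.46 CPM after i.p.-ASC against 0 to 0.69 CPM after i.v.-ASC (unadjusted edgeR p-value 0.0204).

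Stress and transport lists gave medians near 0 with all 12 rats. The heat shock and unfolded protein response (18 genes) had a median of 0.005, antioxidant genes and Nrf2 targets (22 genes) 0.004 (difference of the list means -0.02), the hypoxia response (15 genes) 0.06, immediate early genes (23 genes) 0.07, senescence genes (19 genes) 0.01 and drug and bile acid transport (23 genes) 0.07. Without i.v.-ASC rats 1, 3, 4 and 5 the drug and bile acid median was 0.977 and the proximal tubule median 0.857, beside 0.074 with all rats. The rats left, 2 and 6, had low proximal tubule means (7.41 and 7.12 log2 CPM). Tubule injury genes (19 genes) had a median of -0.04, with 3 members at an unadjusted p below 0.05, all higher after i.v.-ASC. Mesothelium genes, which line the cavity that i.p. cells enter, had 7 members tested with a median of -0.33, and the 2 members at p below 0.05, Upk1b and Krt19, also stand in the urothelium list. Fat cell genes (6 tested) had a median of -0.05, and neutrophil and mast cell genes (4 tested) 0.29, with 0 members at p below 0.05 in either.

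**Figure D5:**
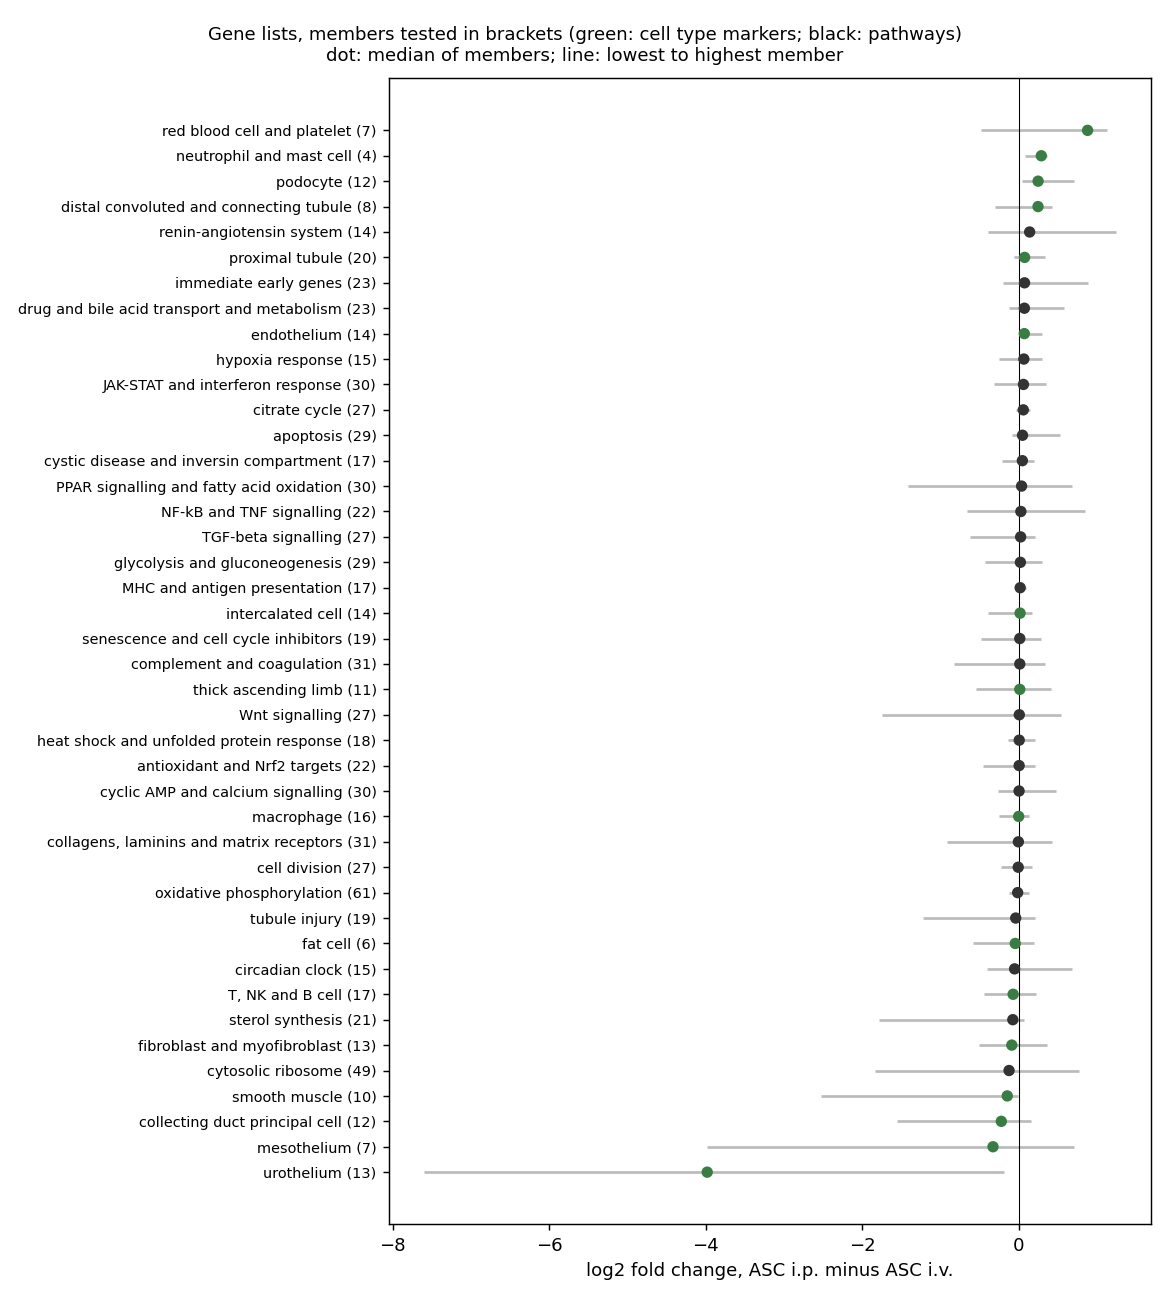
Median log2 fold change (i.p. minus i.v.) of each of the 42 gene lists as a dot, with a line from the lowest to the highest member and the number of members tested in brackets. The urothelium list stands apart at -3.98, while 35 of the 42 medians lie between -0.15 and 0.15.

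The precision of the comparison can be read from the intervals. The 95% interval lay within a 2-fold change for 11684 genes (90.8%) and within a 1.5-fold change for 9443 genes (73.4%), and the median SE was 0.13 on the log2 scale. A fold change above 2 was fitted for 94 genes, 81 of them higher after i.v.-ASC. The median SD of log2 CPM over the 6 rats was 0.227 after i.p.-ASC and 0.232 after i.v.-ASC, and 53.4% of genes had the larger SD after i.v.-ASC, a share whose direction turned without i.v.-ASC rat 1 (45.1%), rat 2 (48.5%) or rat 6 (49.6%) or i.p.-ASC rat 6 (48.7%). Total counts per rat ran from 12444227 to 13959331 after i.p.-ASC and from 12195682 to 14734772 after i.v.-ASC (two-sided exact permutation test, p = 0.892, adjusted 0.942 over 3 library measures), and neither the share of the 10 most abundant genes (exact p = 0.942) nor the number of genes with a count (exact p = 0.381) passed 0.05.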

How the data were processed

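Left kidney RNA of 12 rats was compared, 6 after i.p.-ASC and 6 after i.v.-ASC. Libraries of total RNA were read on a BGISEQ-500. The submitters' processing notes name Trim Galore 0.6.4, kallisto 0.4.6 (as written there) and the rat build rn6. The paper's methods also name a human transcript package, although the files list rat Entrez identifiers. The authors deposited an estimated count per gene, without normalization, and TPM, which is scaled for transcript length and library. Of the deposited estimated counts 14.1% were not whole, and they were rounded. Of 17334 genes, a symbol was found in the RefSeq table (assembly GRCr8) for 17179 and for 155 it was not. How reads shared by paralogs, pseudogenes or overlapping genes were split is not given in the sources used here.

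Counts of all 22 rats entered 1 quasi-likelihood fit of edgeR 4.0.16 under R 4.3.3, with 1 coefficient per group, after filterByExpr and TMM scaling, with Benjamini-Hochberg adjustment over 12867 genes, a threshold of 0.05 and intervals of 95%. A prior count of 2 was added for log2 CPM. Alternatives were a fit of the 12 rats alone (12495 genes), DESeq2 1.42.0, a minimum of 10 counts per rat (11721 genes), no low-count filter (15275 genes), RLE scaling, limma-trend (limma 3.58.1) on log2(TPM + 1) of the deposited TPM, 1 surrogate variable (sva 3.50.0), the animal number or the proximal tubule list as a covariate, a prior count of 0.5 for list means, and leaving out each rat. Added after the data were seen were the urothelium list as a covariate, a robust fit, and the omission of i.v.-ASC rats 1, 3, 4 and 5. The script was tested on simulated data.

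The members and the 42 gene lists were chosen with earlier results of these data known. Genes named in the text were the 10 with the smallest p-values in each direction, the 2 members of each list with the smallest p-values, Anks6 and 9 segment markers, and other genes are named as members of a list, as DESeq2 calls or after their values were seen. A few genes that this rule names are not reported here. The sex check (Ddx3y and Eif2s3y, in rats that the methods call male) found both genes in all 12 rats. No pair of rats of a route agreed within sampling noise (lowest chi-square per gene 13.78). Rats are separate animals. The intervals are for the mean difference between the routes, with the spread between rats estimated over all groups of the fit.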

Additional observations from a re-analysis of the deposited data

Results flagged for a closer look

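In 148 groups of 6 rats tested for a lone extreme value (a gap to the nearest rat beyond Dixon's critical value), 6 were marked, where chance marks about 1 in 20 groups. The 6 marks are no more than chance gives at that rate, so they are descriptions only. All values are log2 CPM. I.p.-ASC rat 3 was marked 3 times. It was the highest in Upk2, at 0.31 against -2.71 to -2.13 in the other i.p.-ASC rats, and the lowest in Klhl31, at 1.41 against 1.79 to 1.87. The Upk2 values rest on 13 counts in this rat and 0 or 1 count in the other i.p.-ASC rats. The mean of the cell division list was also lowest in this rat, at 3.02 against 3.52 to 3.57. I.v.-ASC rat 5 was the lowest in Slc12a3, at 9.24 against 10.51 to 11.26, and in the mean of the hypoxia list, at 5.77 against 5.89 to 5.94. I.v.-ASC rat 1 was the highest in Anks6, at 6.63 against 5.75 to 6.03.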

How the results depend on the processing

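The count of called genes was also 0 with RLE size factors, no filter, at least 10 counts in every rat, the 12 rats alone, limma-trend, each covariate, the robust fit and the omission of 4 i.v.-ASC rats. Not all of these settings could call the urothelial genes. The minimum of 10 counts leaves out genes near 0 after i.p.-ASC, such as Upk3a and Krt5. The fit of the 12 rats alone applies its own filter (12495 genes in place of 12867). The urothelium covariate and the omission of rats take out the difference by how they are built. DESeq2 called 24 genes and the fit with 1 surrogate variable 4 (Krt15, Sptssb, Upk2 and Upk3a). Leaving out single rats gave 0 to 13 calls, with 13 without i.v.-ASC rat 2 and 13 without i.v.-ASC rat 6, of which 12 were shared. The 70 genes at p below 0.05 and higher after i.p.-ASC became 46 with the 12 rats alone, 158 with the surrogate variable, 156 with the urothelium covariate and 235 without i.v.-ASC rats 1, 3, 4 and 5, and 47 to 155 without single rats. The most was reached without i.v.-ASC rat 6, with 134 without i.p.-ASC rat 2 and 111 without i.v.-ASC rat 1 or rat 2. The 211 genes higher after i.v.-ASC became 118 with the 12 rats alone and 127 with limma-trend, and 117 (without i.v.-ASC rat 3) to 325 (without i.p.-ASC rat 2) without single rats. Genes without overlap numbered 2 higher after i.p.-ASC with RLE size factors and 2 with TPM, and leaving out rats, which by itself makes separation easier, gave 1 to 15 on the i.p. side and 8 to 19 on the i.v. side. The share of genes with the larger SD after i.v.-ASC ran from 45.1% (without i.v.-ASC rat 1) to 62.1% (without i.p.-ASC rat 1), and it was below 50% also without i.v.-ASC rat 2 (48.5%), i.v.-ASC rat 6 (49.6%) and i.p.-ASC rat 6 (48.7%). Exact p-values of the library measures ran from 0.247 to 0.963 for total counts, 0.528 to 0.996 for the top 10 share and 0.195 to 0.74 for genes with a count, and the small differences in total count and top 10 share changed sign without some rats.

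Among the list medians under the alternatives, 17 moved (991 did not) by more than the SD between rats. Each median is over the members that passed the filter of that setting. The urothelium median was -0.672 with at least 10 counts in every rat, -2.296 with the 12 rats alone, -2.024 with limma-trend, 0.016 with its own covariate and 0.261 without the 4 i.v.-ASC rats, and the mesothelium median, which holds Upk1b and Krt19, was -0.075, -0.09 and -0.066 with the first, the third and the fourth of these settings. Without the 4 i.v.-ASC rats the medians were 0.857 for proximal tubule, 0.352 for thick ascending limb, -0.261 for podocyte, -0.345 for complement and coagulation, 0.077 for the clock and 0.977 for drug and bile acid transport. With the urothelium covariate they were 0.344 for thick ascending limb, -0.339 for complement and coagulation and -0.034 for apoptosis. The 2 i.v.-ASC rats left, 2 and 6, had low proximal tubule means of 7.41 and 7.12 and the highest podocyte means after i.v.-ASC, 5.48 and 5.80. Changes of these medians therefore follow from which rats are left. No named gene was called by the main edgeR fit, and 50 of 122 changed sign under at least 1 alternative (103 of 2864 values). No paired analysis was possible because the animal numbers in the labels are not shared between the routes. Depth limits the genes near 0 after i.p.-ASC, such as Sprr1a, whose fold change depends on the prior count.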
